A study of Rattus norvegicus with 8 samples.

Results

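Pla2g1b and Pla2g2a encode 2 secreted phospholipases A2, and they were measured in the ovaries of female rats that had carried an androgen implant or an empty implant. Both genes were chosen because they moved in opposite directions between these same animals, so their values between the groups are a description and carry no test. They were found as the probe sets whose annotation names that gene symbol alone. Each had 1 such probe set on the Affymetrix rat genome array, a chip that reads each transcript through a set of short probes, and they are 2 of 14217 genes with a probe set of a single symbol. By the means of the log2 values, Pla2g1b was 54.6-fold lower in the DHT animals than in the CTL animals, whereas Pla2g2a was 3.92-fold higher, or at least 2.72-fold when its CTL signal is taken as no more than background. The Pla2g1b fold was 30.1 without CTL 2, 107 without CTL 3 and 153 between arrays of pooled RNA.

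The DHT rats were Sprague-Dawley females that carried a silicone capsule filled with 5α-dihydrotestosterone (DHT), an androgen that aromatase cannot turn into an estrogen, for 12 weeks, and the CTL rats carried an empty capsule for the same time. Ovaries were collected at 15 weeks of age and RNA was taken from the cortex. Each group had 3 arrays of single animals (DHT 1 to 3 and CTL 1 to 3), and 1 further array held RNA pooled from those same 3 animals, so that the pools are a check and not additional animals. The study's methods describe corpora lutea in most CTL ovaries and none or very few in the DHT ovaries, which limits the comparison as one of ovaries with different structures.

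Phospholipases A2 cut the fatty acid from the middle position of a membrane or dietary phospholipid and leave a lysophospholipid. The released fatty acid can be arachidonic acid, from which cyclooxygenases make prostaglandins and lipoxygenases make leukotrienes, both of which take part in follicle rupture and in the regression of the corpus luteum. Pla2g1b is the group IB enzyme of pancreatic juice, which is secreted as an inactive precursor, opened by trypsin, and digests phospholipids in the gut. Pla2g2a is the group IIA enzyme of platelet granules and inflamed tissues, which is induced by inflammatory cytokines and attacks the membranes of Gram-positive bacteria. Both are small calcium-dependent enzymes held together by disulfide bonds.

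The 250 bases before the transcription start of each gene are shown because the transcripts of the 2 genes went in opposite directions and this is the stretch in which their control regions can be set side by side. Both are from the RefSeq annotation of the rat assembly GRCr8, 5′ to 3′ on the strand of the gene, at chr12:46812654-46812903 (minus strand) for Pla2g1b and chr5:156359475-156359724 (plus strand) for Pla2g2a. Capitals mark the motif matches described below.
Pla2g1b: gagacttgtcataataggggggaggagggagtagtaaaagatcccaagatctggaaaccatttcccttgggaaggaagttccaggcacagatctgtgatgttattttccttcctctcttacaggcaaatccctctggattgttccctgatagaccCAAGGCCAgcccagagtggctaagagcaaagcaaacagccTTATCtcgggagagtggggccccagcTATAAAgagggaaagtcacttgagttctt
Pla2g2a: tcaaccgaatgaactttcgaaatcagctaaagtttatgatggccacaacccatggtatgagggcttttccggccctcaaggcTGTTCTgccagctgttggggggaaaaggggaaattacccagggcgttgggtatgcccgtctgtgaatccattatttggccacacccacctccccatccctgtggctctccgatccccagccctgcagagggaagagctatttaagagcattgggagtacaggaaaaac

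The 2 promoters shared none of the motif matches searched for. Both strands were searched for the short site of steroid receptors such as the androgen receptor (TGTTCT), for the palindrome that a pair of such receptors binds, for the element of the orphan nuclear receptor Nr5a1 and its relatives (CAAGGNCA), for the GATA factor site (GATAA), for the C/EBP site (TTGCNNAA) and for the TATA box (TATAAA). The Pla2g1b sequence held CAAGGCCA at 95 to 88 bases before the start, a GATAA match on the opposite strand (TTATC) at 55 to 51, and TATAAA at 29 to 24. The Pla2g2a sequence held TGTTCT at 168 to 163 bases before the start and no exact match to the others. Variants of these sites, such as other forms of the TATA box, were not searched for. Of all 33469 promoters of the same length, 17.5% held TGTTCT, 5.58% CAAGGNCA, 23.5% GATAA, 9.22% TTGCNNAA, 12.9% TATAAA and 0.012% the palindrome. GC content was 48.8% for Pla2g1b and 52.4% for Pla2g2a, beside a median of 51.2% over all promoters. The motifs were chosen after the sequences had been read, and the matches say nothing of binding.

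Pla2g1b was low in every DHT animal. Its log2 expression, in the GCRMA values deposited by the authors, was 5.15, 5.69 and 6.21 in DHT 1, 2 and 3, against 11.66, 13.18 and 9.52 in CTL 1, 2 and 3. The highest DHT animal lay 3.31 log2 units below the lowest CTL animal, so the groups did not overlap. The means were 5.68 ± 0.53 in DHT ovaries and 11.45 ± 1.83 in CTL ovaries (SD, n = 3 each), and the log2 fold change was -5.77 (SE 0.97). Among the 14217 genes only Rln1, which encodes the hormone relaxin, had a more negative fold change.

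Pla2g2a was low in every CTL animal and higher in every DHT animal. Its log2 expression was 4.25, 5.16 and 5.46 in DHT 1, 2 and 3, against 2.94, 3.11 and 2.90 in CTL 1, 2 and 3. The lowest DHT animal stood 1.14 log2 units above the highest CTL animal. The means were 4.96 ± 0.63 in DHT ovaries and 2.98 ± 0.11 in CTL ovaries (SD, n = 3 each), with a log2 fold change of 1.97 (SE 0.33) that placed the gene at rank 52 of 14217 among the higher genes. The difference between the log2 fold changes of Pla2g2a and Pla2g1b was 7.74.

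**Figure D1:**
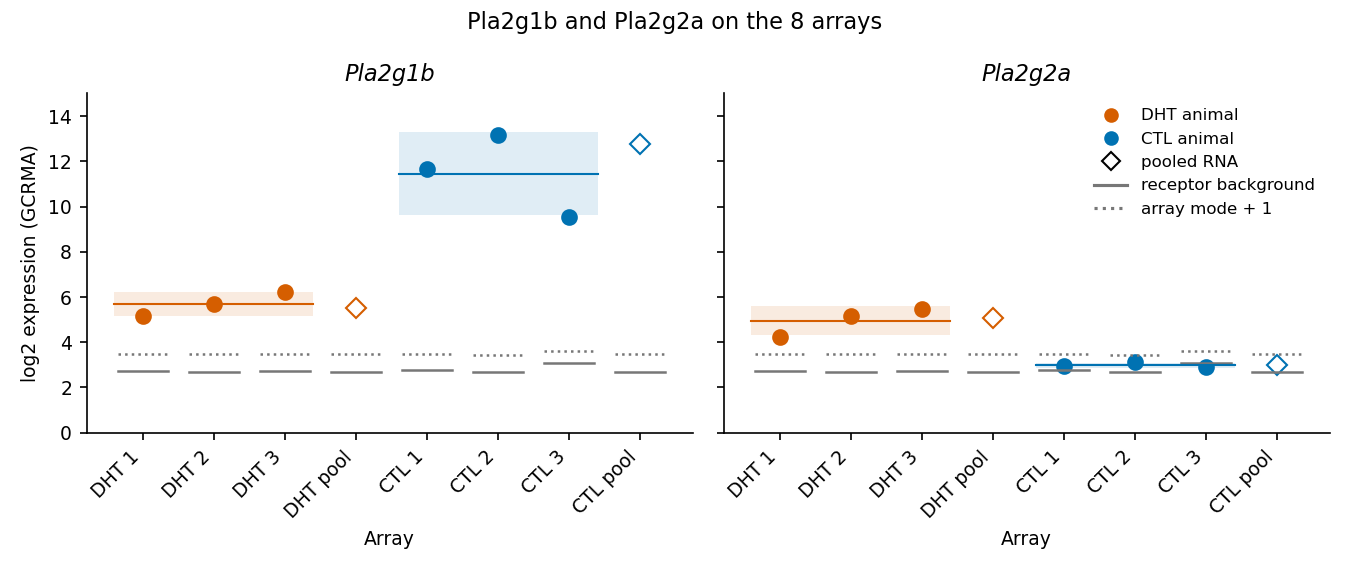
Log2 expression (GCRMA, y axis) of Pla2g1b (left) and Pla2g2a (right) on each of the 8 arrays (x axis). Filled circles are single animals, open diamonds pooled RNA, coloured lines and bands the group mean ± SD over 3 animals, and grey lines the 2 background levels of each array. For Pla2g1b the DHT animals lie between 5.15 and 6.21 and the CTL animals between 9.52 and 13.18, whereas for Pla2g2a the DHT animals lie between 4.25 and 5.46 and the CTL animals between 2.90 and 3.11, at the background lines.

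The animals of a group differed widely for Pla2g1b in both groups and for Pla2g2a in DHT ovaries. For Pla2g1b the CTL animals spanned 3.65 log2 units and the DHT animals 1.06. Of all genes, many of them near background, 98.2% had a smaller SD among CTL animals and 96.5% among DHT animals. For Pla2g2a the DHT animals spanned 1.21 log2 units, and their SD exceeded that of 97.8% of genes. The CTL animals spanned 0.21, but at a signal near background, where a spread among animals cannot be read. In linear signal, CTL 2 alone held 69.9% of the summed Pla2g1b signal of the 3 CTL animals. For both genes DHT 3 was the highest and DHT 1 the lowest DHT animal.

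The arrays differ in how far above background they read the 2 genes. The background of an array was taken as the 95th percentile of 29 probe sets for olfactory, vomeronasal and taste receptors, genes known from the sense organs. Pla2g1b was above it on all arrays, by 2.41 to 3.48 log2 units in the DHT animals and by 6.43 to 10.5 in the CTL animals, so transcript was read in DHT ovaries as well. Pla2g2a in the CTL animals was 0.17 and 0.45 log2 units above background in CTL 1 and 2 and lay below it in CTL 3 (-0.19), so the group mean there is close to the lowest signal the array can tell. By a second level, 1 log2 unit above the mode of each array, Pla2g2a was not above background in any CTL animal, and the DHT mean was then at least 2.72-fold higher than that level.

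The pooled arrays showed both directions again. Pla2g1b read 5.53 in the DHT pool and 12.78 in the CTL pool, a log2 difference of -7.26. Pla2g2a read 5.05 in the DHT pool and 3.00 in the CTL pool, a log2 difference of 2.05. A pool should read near the average of the linear signals of its animals, which for Pla2g1b was 5.75 in DHT and 12.11 in CTL, so that the DHT pool lay 0.22 below it and the CTL pool 0.68 above it. For Pla2g2a the same average was 5.04 in DHT and 2.99 in CTL, 0.013 below the pool in each group. The Pla2g1b difference between the pools was thus larger than that between the animals, and for Pla2g2a the 2 differences were close.

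One array stood apart. CTL 3 had a median log2 value over all probe sets of 3.25, whereas the others lay between 2.97 and 3.03, and its signal from the 3′ end of Gapdh exceeded that from the 5′ end by 3.49 log2 units, a measure of how intact the RNA and its copies were. That excess was 3.61, 2.99 and 3.98 in DHT 1, 2 and 3, against 0.39 and 0.62 in CTL 1 and 2. For Actb, the beta actin gene, the excess was 7.02, 7.31 and 6.48 in DHT 1, 2 and 3, against 4.56, 5.30 and 6.83 in CTL 1, 2 and 3. CTL 3 thus lay within the DHT animals' range in both measures, and it was also the lowest CTL animal for Pla2g1b. Against CTL 3 alone the log2 fold change of Pla2g1b was -3.84, and without CTL 3 it was -6.74. For Pla2g2a the same values were 2.05 and 1.93. CTL 1 and 2, with the least 3′ excess, were the 2 highest animals for Pla2g1b. The CTL pool, which holds RNA of CTL 1, 2 and 3, read Pla2g1b at 12.78. Its excess was 2.62 for Gapdh, below the DHT animals' range, and 6.77 for Actb, within that range. The part that the 3′ to 5′ difference has in either gene's change was not tested.

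**Figure D2:**
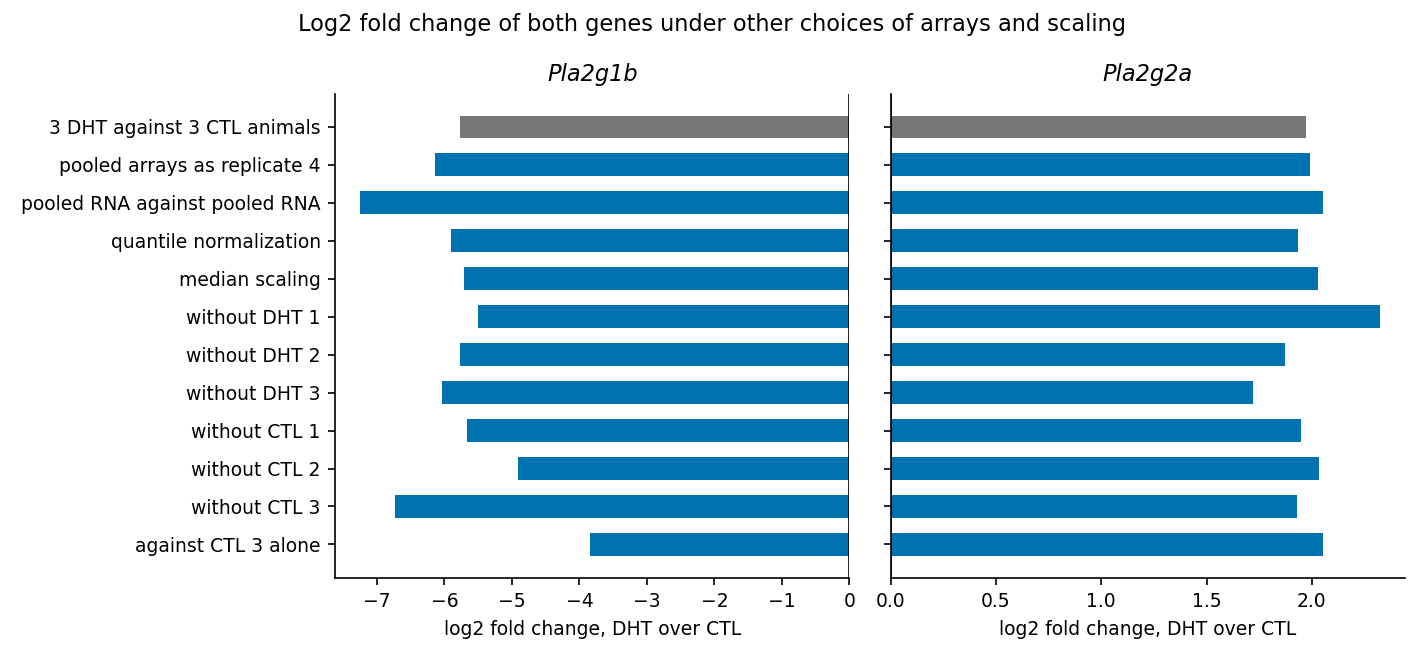
Log2 fold change, DHT over CTL (x axis), of Pla2g1b (left) and Pla2g2a (right) under each choice of arrays and scaling (rows). The grey bar is the value from 3 DHT and 3 CTL animals. Pla2g1b stays between -7.26 and -3.84 and Pla2g2a between 1.72 and 2.32.

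Across all probe sets, DHT against CTL was fitted with limma over the 6 single animals, and a probe set was called when its mean differed at least 2-fold with p of at most 0.01 and a false discovery rate of at most 10%. Of 31042 probe sets, 0.351% were called lower and 0.68% higher in DHT ovaries. All 3 DHT values lay below all 3 CTL values for 6.85% of probe sets and above them for 10.6%, so that groups of 3 without overlap, as in Pla2g1b and Pla2g2a, are common on these arrays. Both genes were chosen from this contrast, and nothing is read from their place among these shares.

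The genes whose values followed Pla2g1b most closely over the 6 arrays were found by the root mean square difference of the log2 values, each gene centred on its own mean. They were Xpnpep2 (difference of 0.718), a membrane aminopeptidase, Calml3 (0.839), a calmodulin-like protein, Idi1 (0.892) and Msmo1 (1.01), enzymes of cholesterol synthesis, and Osgin1 (0.958), a gene induced by oxidative stress. Xpnpep2 had log2 values of 2.50, 2.72 and 2.54 in DHT 1, 2 and 3, against 7.26, 10.35 and 7.30 in CTL 1, 2 and 3. It lay below background in DHT 1 and DHT 3, so its order among the DHT animals cannot be read. Idi1 had 5.42, 6.03 and 5.47 in DHT 1, 2 and 3, against 10.13, 11.17 and 8.13 in CTL 1, 2 and 3. All 5 genes were highest in CTL 2, as Pla2g1b was, and 4 of the 5 were lowest among CTL animals in CTL 3, the exception being Xpnpep2. None of the 5 had its highest DHT value in DHT 3, where Pla2g1b had its own.

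The 5 genes nearest to Pla2g2a were Osr2 (difference of 0.26), a zinc finger transcription factor, Ptprd (0.314), a receptor tyrosine phosphatase, Tpst1 (0.328), which sulfates tyrosines of secreted proteins, Nr3c2 (0.337), the mineralocorticoid receptor, and Gab1 (0.361), a docking protein of growth factor receptors. Osr2 had log2 values of 6.70, 7.01 and 7.27 in DHT 1, 2 and 3, against 5.31, 5.36 and 5.28 in CTL 1, 2 and 3. Nr3c2 had 3.78, 4.31 and 4.88 in DHT 1, 2 and 3, against 3.10, 3.08 and 2.61 in CTL 1, 2 and 3. Their log2 fold changes of 1.39 to 1.68 were below that of Pla2g2a, and 4 of the 5 were highest in DHT 3, the exception being Ptprd. Over the mean of their probe sets Tpst1 had 0.78 and Ptprd 1.18, and Nr3c2 was below background in CTL 3. All 5 genes were selected for their likeness, so their values are a description.

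**Figure D3:**
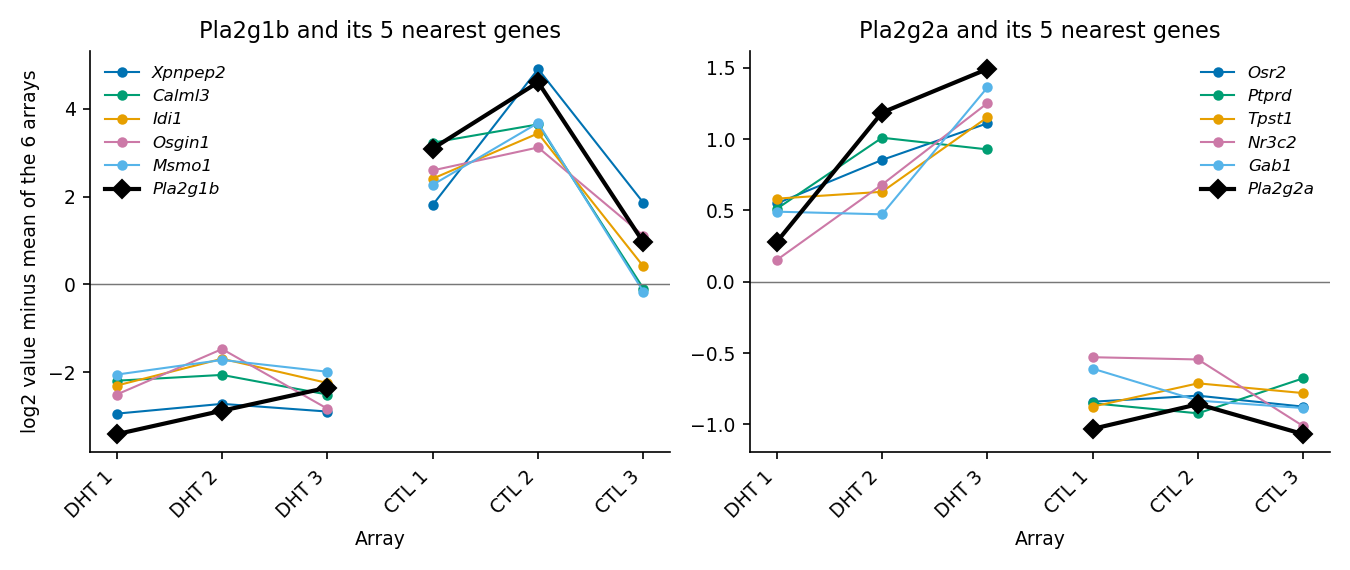
Log2 value minus the gene's own mean over the 6 single-animal arrays (y axis) on each array (x axis), for Pla2g1b (left, black) and Pla2g2a (right, black) with the 5 genes of smallest root mean square difference to each (coloured). The Pla2g1b neighbours peak in CTL 2, and the Pla2g2a neighbours are spread in the DHT animals and close together in the CTL animals.

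No other secreted phospholipase A2 was called in either direction. Of 9 such genes, 7 were measured, and 4 of them (Pla2g2c, Pla2g2f, Pla2g3 and Pla2g10) were near background in both groups. In limma 0 of the 7 were called and 0 had an unadjusted p below 0.05, and their median log2 fold change was -0.04, beside -0.03 over all probe sets. Pla2g2d, a lymphoid tissue enzyme of the same gene cluster as Pla2g2a, had log2 values of 2.90, 2.66 and 3.05 in DHT 1, 2 and 3, against 3.37, 3.50 and 5.11 in CTL 1, 2 and 3. Its log2 fold change of -1.12 was -0.56 without CTL 3 and was not called (limma adjusted p = 0.482). Pla2g5, another member of that cluster, had 2.76, 3.20 and 3.93 in DHT 1, 2 and 3, against 3.85, 3.25 and 2.92 in CTL 1, 2 and 3, and the groups overlapped (log2 fold change -0.04, limma adjusted p = 0.963). Pla2g12a, a more distant relative in sequence, had a log2 fold change of 0.08 (limma adjusted p = 0.947).

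Among the 83 measured genes that act beside or after a phospholipase A2, of 97 listed in 7 groups, limma called 0 lower and 0 higher. An unadjusted p below 0.05 was found for 13 of them (15.7%), against 11.9% of all probe sets. On average 52 were lower (62.7%) and 31 higher in DHT ovaries, the same split as over all probe sets, of which 62.5% were lower. The direction of such small changes depended on scaling. CTL 3 had the highest median and background of the arrays, and with median scaling the median over all probe sets turned from -0.03 to 0.03. The DHT values all lay below the CTL values for 12 genes (14.5%, against 6.85% of all probe sets) and above them for 7 (8.43%, against 10.6%).

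The phospholipase receptor Pla2r1, which binds Pla2g1b in rodents, had a log2 fold change of 0.02 (limma adjusted p = 0.911). Its signal was not above the second background level in any single animal. Of the annexins, which bind phospholipid surfaces and can shield them from phospholipases, Anxa4 had 0.74, Anxa6 0.42 and Anxa5 -0.82 (limma adjusted p = 0.479, 0.667 and 0.727), and Anxa4 turned to -0.056 over the mean of its probe sets. In this group of 8 genes 0 had an unadjusted p below 0.05. The next group held intracellular phospholipases and platelet activating factor hydrolases, and also Pla1a, a secreted phospholipase of type A1. Of its 15 genes measured, 4 had an unadjusted p below 0.05 and none was called. Pla2g4a, the cytosolic enzyme that releases most arachidonic acid on cell stimulation, had a log2 fold change of -0.16 (limma adjusted p = 0.896), and its relative Pla2g4b had 0.57 (limma adjusted p = 0.363). Pafah1b3, a catalytic subunit of platelet activating factor acetylhydrolase, had log2 values of 5.54, 5.16 and 5.03 in DHT 1, 2 and 3, against 4.43, 4.19 and 2.91 in CTL 1, 2 and 3, with no overlap (log2 fold change 1.40, limma adjusted p = 0.294). Pnpla2, the lipase that opens stored triglyceride, had 4.653, 4.623 and 4.001 in DHT 1, 2 and 3, against 5.388, 6.065 and 4.924 in CTL 1, 2 and 3, also with no overlap (log2 fold change -1.03, limma adjusted p = 0.337).

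None of the prostaglandin genes passed the call. Of 15 enzymes and transporters measured, 3 had an unadjusted p below 0.05 and the median log2 fold change was -0.21. Abcc4, which exports prostaglandins from cells, had log2 values of 5.46, 5.53 and 5.09 in DHT 1, 2 and 3, against 7.56, 6.58 and 6.44 in CTL 1, 2 and 3 (log2 fold change -1.50, SE 0.34, limma adjusted p = 0.156). Slco2a1, which takes prostaglandins up for breakdown, had 5.02, 4.89 and 3.76 in DHT 1, 2 and 3, against 5.99, 6.72 and 5.96 in CTL 1, 2 and 3 (log2 fold change -1.66, SE 0.42, limma adjusted p = 0.193). Both transporters were thus below the CTL range in each DHT animal, although over the mean of its probe sets Slco2a1 had -0.93. Ptgr1, which inactivates prostaglandins and leukotriene B4, had 8.09, 7.91 and 8.14 in DHT 1, 2 and 3, against 7.47, 6.82 and 5.85 in CTL 1, 2 and 3 (log2 fold change 1.33, SE 0.42, limma adjusted p = 0.297). The cyclooxygenases Ptgs1 and Ptgs2 had log2 fold changes of -0.34 and -0.23 (limma adjusted p = 0.511 and 0.896).

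Of 7 prostanoid receptors measured, 5 were near background in both groups, Ptger1 among them, and 1 had an unadjusted p below 0.05. Ptger3, a receptor of prostaglandin E2, had log2 values of 5.01, 4.38 and 5.85 in DHT 1, 2 and 3, against 2.22, 3.28 and 3.46 in CTL 1, 2 and 3 (log2 fold change 2.09, SE 0.51, limma adjusted p = 0.18). Its signal was below background in CTL 1 and not above the second background level in any CTL animal, so the size of its fold is uncertain. Over the mean of its probe sets Ptger3 had 1.03. Ptgfr, the receptor through which prostaglandin F2α ends the life of the corpus luteum, had 2.23, 2.26 and 2.24 in DHT 1, 2 and 3, which is near background in each, against 4.56, 3.40 and 2.38 in CTL 1, 2 and 3. In CTL 3 it was near background too, so no fold is given (limma adjusted p = 0.494). Of 11 lipoxygenase and leukotriene genes, 7 were near background in both groups and 0 had an unadjusted p below 0.05. Alox5ap, which hands arachidonic acid to 5-lipoxygenase, had a log2 fold change of -0.67 and Ltc4s, which makes leukotriene C4, had 0.50 (limma adjusted p = 0.427 and 0.446). Dpep1, which trims leukotriene D4, had -0.58 (limma adjusted p = 0.489).

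The lysophospholipid genes, which use the other product of a phospholipase A2, held the smallest adjusted p of the 7 groups. Mboat1, which puts a fatty acid back onto a lysophospholipid, had log2 values of 4.89, 4.66 and 4.62 in DHT 1, 2 and 3, against 4.08, 3.81 and 3.79 in CTL 1, 2 and 3. Its animals were tightly grouped and the groups did not overlap (log2 fold change 0.83, SE 0.12, limma adjusted p = 0.0747), and it missed the call by its fold of 1.78 alone. Enpp6, a choline phosphodiesterase of lysophospholipids, had 5.02, 3.99 and 4.06 in DHT 1, 2 and 3, against 2.58, 2.62 and 2.87 in CTL 1, 2 and 3, where it was near background in each animal, so that it was at least 2.85-fold higher in DHT ovaries (limma adjusted p = 0.111). Plpp2, which removes the phosphate from lysophosphatidic acid, had a log2 fold change of 0.77 (limma adjusted p = 0.37). Of the 20 genes measured, 5 had an unadjusted p below 0.05 and the median log2 fold change was -0.01.

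**Figure D4:**
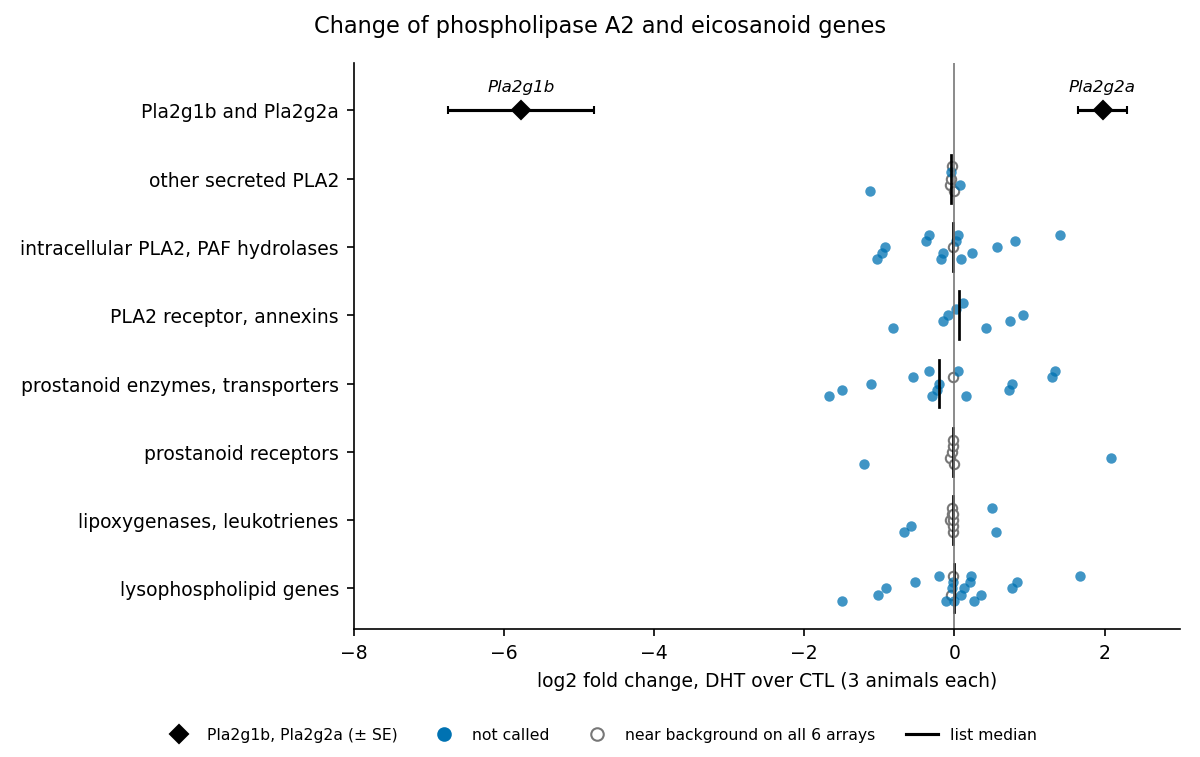
Log2 fold change, DHT over CTL (x axis), of Pla2g1b and Pla2g2a (diamonds with SE) and of the 83 measured genes of the 7 groups around them (circles, rows). Open circles are near background on all 6 arrays and bars are group medians. The group medians lie between -0.21 and 0.07, with no circle beyond -1.66 or 2.09.

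Marker genes of luteal cells were lower on average in the DHT animals than in the CTL animals, as Pla2g1b was. Some kept a high signal there, such as Cyp11a1 with log2 values of 10.01, 10.36 and 7.07 in DHT 1, 2 and 3. Since bulk tissue was measured, fewer cells of a type and less RNA per cell cannot be told apart. Of 9 measured luteal markers, 9 were lower on average in DHT ovaries and 8 had no overlap between the groups (6.85% of all probe sets lay so), with a median log2 fold change of -3.17, beside -0.03 over all probe sets. Limma called 0 of them, where 0.351% of all probe sets were called lower, and gave 6 an unadjusted p below 0.05. It called 1 lower without CTL 3 (A2m), 2 without CTL 1 (Rln1 and Hsd17b7), 2 with dim probe sets left out (A2m and Hsd17b7) and 6 with the pools as a replicate 4. Their summed linear signal was 1247 to 5463 in DHT animals, against 12860 to 35446 in CTL animals. Among the CTL animals this sum, like Pla2g1b, was highest in CTL 2 and lowest in CTL 3, but among the DHT animals it was lowest in DHT 3, where Pla2g1b was highest. The part of luteal tissue in the Pla2g1b difference was not tested.

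The pancreas, from which Pla2g1b is best known, was looked for through its acinar markers. Of 23 measured, 19 were near background in both groups, among them Prss1, Pnlip, Cel, Cpb1 and the transcription factor Ptf1a, and the median log2 fold change was -0.04. The summed linear signal of all 23 was 684 to 1918 in DHT animals, against 144 to 163 in CTL animals. In limma 0 were called lower and 2 were called higher, both with no overlap. Cpa1, carboxypeptidase A1, had log2 values of 9.30, 8.40 and 10.77 in DHT 1, 2 and 3, against 4.17, 5.01 and 4.20 in CTL 1, 2 and 3 (log2 fold change 5.03, limma adjusted p = 0.0646). Ctrb1, chymotrypsinogen B1, had 7.97, 7.83 and 5.80 in DHT 1, 2 and 3, against 2.99, 3.18 and 2.73 in CTL 1, 2 and 3 (log2 fold change 4.23, limma adjusted p = 0.0786). Ctrb1 was below background in CTL 3 and not above the second background level in any CTL animal, so the size of its fold is uncertain. These 2 pancreatic enzymes were thus high where Pla2g1b was low. Both calls were lost when any 1 animal other than CTL 3 was left out (limma adjusted p of 0.12 to 0.285).

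Platelets and inflammatory cells, in which Pla2g2a is best known, had no marker that limma called higher in DHT ovaries. Of 8 platelet markers measured, 5 were near background in both groups, and limma called 0 and gave 1 an unadjusted p below 0.05. Their summed linear signal was 96.2 to 106 in DHT animals, against 105 to 145 in CTL animals. The highest of these sums was that of CTL 3, the array with the highest background. Of 13 macrophage markers 12 were lower on average in DHT ovaries, with a sum of 381 to 469 in DHT animals, against 691 to 1325 in CTL animals, and limma called Ctss lower (log2 fold change -1.16, limma adjusted p = 0.0994). Without CTL 3 limma called 4 macrophage markers lower, Ctss among them, and without any other single animal Ctss lost its call (limma adjusted p of 0.133 to 0.348). Of 5 neutrophil and 8 smooth muscle markers limma called 0, with an unadjusted p below 0.05 for 0 and 1 of them. Granulosa markers summed to 9408 to 11065 in DHT animals, against 3490 to 5779 in CTL animals, with Inhba called higher (log2 fold change 1.45, limma adjusted p = 0.0692), and theca markers to 1516 to 2633 in DHT animals, against 407 to 784 in CTL animals, with Insl3 called higher (log2 fold change 3.11, limma adjusted p = 0.0575). In DHT animals most of the granulosa sum came from Inha and Inhba. Of 10 granulosa markers measured, 9 were higher on average in DHT ovaries and 1, Cyp19a1, was lower (log2 fold change -2.91, limma adjusted p = 0.404). Cyp19a1 was called lower with the pools as a replicate 4. The Inhba and Insl3 calls were lost without CTL 2 and without any 1 DHT animal. The part of any of these cell types in the Pla2g2a difference was not tested.

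**Figure D5:**
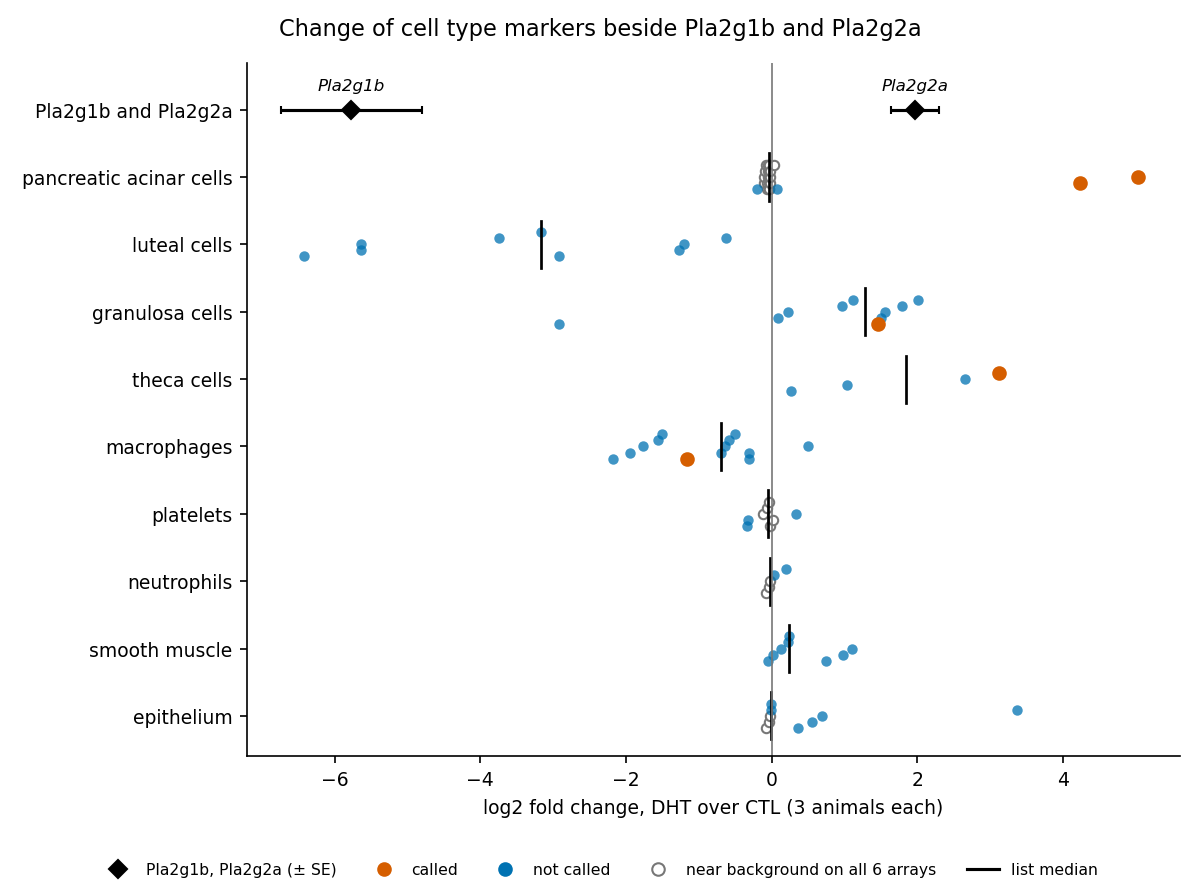
Log2 fold change, DHT over CTL (x axis), of Pla2g1b and Pla2g2a (diamonds with SE) and of the measured markers of 9 cell types (circles, rows), with called genes in orange, open circles near background on all 6 arrays, and bars at list medians. Luteal markers lie on the Pla2g1b side with a median of -3.17, while most pancreatic acinar markers sit near 0 and Cpa1 and Ctrb1 lie at 5.03 and 4.23.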

How the data were processed

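RNA of ovarian cortex from 8 arrays (3 DHT animals, 3 CTL animals and 1 pool of each) was analysed from the deposited table of log2 values, which the authors made with GCRMA (background correction from probe sequence, quantile normalization and summary per probe set). Arrays give no read depth, and precision is set by how many there are. Of the probe sets, 57 controls were left out and 31042 were tested. The platform annotation gave 20826 probe sets 1 gene symbol, 436 several and 9780 none, and a gene was read from its single-symbol probe set of highest mean. Limma 3.58.1 in R 4.3.3 compared DHT with CTL over the 6 single animals, with Benjamini-Hochberg adjustment, after a check on simulated data. The single-animal RNA came from different rats, so the SD is between animals. Genes were named by rule: both phospholipases, their 5 nearest profiles each, in each pathway group every called gene and up to 3 more of smallest p, and the called markers. Pla2g5, Pla2g12a, Pla2r1, Anxa5, Pla2g4a, Ptgs1, Ptgs2 and the pancreatic markers at background were added with their values known. Pla2g1b and Pla2g2a, the gene lists and the tests were chosen with earlier results of these data known. The labels do not say whether same-numbered animals were paired. Their deviations from the group means correlated at -0.074, 0.443 and 0.342. These values cannot decide it, since differently numbered animals were not compared. Alternatives were the pools as a replicate 4, a replicate block, other scalings, a dim filter, a mean-variance trend, a stricter false discovery rate, the mean of a gene's probe sets and each animal left out. RefSeq also annotates Pla2g1bl1, and whether the Pla2g1b probe set reads its transcript was not tested.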

Additional observations from a re-analysis of the deposited data

How the results depend on the processing

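Pla2g1b stayed lower and Pla2g2a higher in DHT ovaries under every alternative that gave them a value. As the groups did not overlap for either gene, leaving out animals could not turn a sign, and the pools hold RNA of the same animals. The block, trend and dim filter could not change either value, since they alter only the variances or the other probe sets. The mean of probe sets could not either, as each gene had 1 probe set. Leaving out 1 animal gave log2 fold changes of -6.74 to -4.91 for Pla2g1b and 1.72 to 2.32 for Pla2g2a. For Pla2g1b the pools gave -7.26, and CTL 3 alone as the control, chosen after seeing the data, gave -3.84.

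The counts of calls were less stable. Against 109 probe sets lower and 211 higher, the pools as a replicate 4 gave 433 and 533, leaving out dim probe sets gave 175 lower, quantile normalization gave 87 higher, a mean-variance trend gave 40 and 21, and a false discovery rate of 5% gave 10 and 19. Leaving out 1 animal gave 0 to 968 lower and 0 to 654 higher, with 0 and 0 when any 1 DHT animal was left out (2529 to 2623 probe sets at an unadjusted p below 0.05, against 3681), 72 higher without CTL 1, 42 and 50 without CTL 2, and 968 and 654 without CTL 3. The replicate block, for which no pairing of the animals is known, gave 0 and 0, with 3817 probe sets at an unadjusted p below 0.05. The share of calls that were higher was 65.9%, against 50.3% with quantile normalization, 55.2% with the pools and 34.4% with the trend. The median over all probe sets moved by less than 0.1 under each scaling.

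Of the pathway genes, 0 lower and 0 higher became 4 lower (Abcc4, Plaat1, Pnpla2 and Slco2a1) and 4 higher (Enpp6, Pafah1b3, Ptger3 and Ptgr1) with the pools as a replicate 4, whose RNA is that of the same animals. Leaving out dim probe sets gave 1 higher (Enpp6), and leaving out 1 animal gave 0 to 1 lower (Pla1a, without CTL 3) and 0 higher. The sign turned for values near 0: Pla2g10 was 0.00143 and Pla2g2c 0.0086 with median scaling, leaving out 1 animal gave -0.0821 to 0.0189 for Pla2g2c and -0.102 to 0.0221 for Ptger1 (both above 0 without CTL 3), and Anxa4 was -0.056 over the mean of its probe sets. The called markers Cpa1, Ctrb1, Ctss, Inhba and Insl3 kept their direction under every alternative run. All 5 lost the call with the block, without CTL 2 and without any 1 DHT animal, and Cpa1, Ctrb1 and Inhba also with quantile normalization (limma adjusted p = 0.101, 0.127 and 0.286). Ctss and Inhba also lost it with median scaling (limma adjusted p = 0.194 and 0.103) and with the trend (0.224 each), and Cpa1, Ctrb1 and Ctss without CTL 1 (0.146, 0.172 and 0.133). With the pools as a replicate 4, limma called 4 of 13 macrophage markers lower. The causes were not tested.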
